A study of Mus musculus with 4 samples.

Results

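The genes described here encode protein subunits of the mitochondrial respiratory chain and of the ATP synthase it drives, in single mouse bone marrow cells sorted by the surface protein CD44. They were taken by name from the deposited tables: 78 nuclear genes whose names begin with the stems of complex I (Nduf), II (Sdh), III (Uqcr), IV (Cox) and V (Atp5), and 13 genes of the mitochondrial genome, 91 of 17508 gene rows in all. The name rule leaves out some subunits, among them Cox4i1, Ndufab1 and Cyc1, which are given apart. It also takes Ndufa4, which is counted in complex I by its name although it is now placed in complex IV. Atp5s, a factor related to the synthase by name, and Atp5sl are likewise counted in complex V by their names alone.

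Complexes I, III and IV pass electrons from nutrients to oxygen and pump protons across the inner mitochondrial membrane, complex II feeds electrons in from succinate, and complex V uses the proton gradient to make ATP. Every complex but II is built from subunits of both genomes, so nuclear and mitochondrial transcripts must meet in one assembly. In marrow, red cell precursors are known for a high mitochondrial demand, since haem is made in part inside mitochondria, while maturing neutrophils rely largely on glycolysis.

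The cells came from C57BL/6 mice. Marrow was dissociated with collagenase IV at 2 mg/mL and dispase at 1 mg/mL, and single CD51-negative cells, which the labels call TNCs without spelling the abbreviation out, were sorted into plates of 384 wells as CD44+ or CD44- and read by SORT-seq, a plate method that tags each transcript once near its 3′ end with a molecular identifier. The labels give neither the age nor the sex of the mice, nor which animals supplied which plate. The 3 libraries of each sort are a whole plate (replicate 1, both sorts on 1 flow cell) and the blocks of rows given to each sort on 2 plates that held both (replicates 2 and 3, the other flow cell), so same-numbered libraries form pairs.

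A well was used when it held at least 1000 gene transcripts, which kept 343 of 1536 wells. The CD44+ libraries held 56, 95 and 87 wells with medians of 1994, 5162 and 11225 transcripts, and the CD44- libraries held 44, 24 and 37 wells with medians of 1848, 1795 and 2544. Depth therefore differed between the sorts most on the shared plates. Levels are given as CPM, the count of a gene scaled to 1000000 gene transcripts in the summed library. Because a transcript is tagged once, these counts were not divided by gene length. In such sums, fewer cells of a type and less RNA per cell cannot be told apart.

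The nuclear genes lie on many chromosomes and are shown first by their promoters, in which some of them hold letter patterns of known regulators of mitochondrial genes. Windows from 250 bases before to 50 bases after the annotated start (RefSeq, GRCm38.p6) were found for 63 of the 78 nuclear genes. Some genes have more than 1 annotated start, and a gene was counted when any of its windows held the pattern. The pattern of GCGCA, any base and GCGC, which resembles the site of nuclear respiratory factor 1, occurred on either strand in 16 of the 63 genes (25.4%) and in 5.19% of 27025 genes with such windows. The pattern ACCGGAAG, which resembles the site of ETS factors such as GABP, occurred in 6 (9.52%) against 2.60% of all genes. AANATGGCG, like the YY1 site, occurred in 10 (15.9%) against 2.76%, and CCAATC occurred in 13 (20.6%) against 18.2%. A match of letters is a description and not a measured binding site. The following stretches lie just before the start site of genes described below and are written 5′ to 3′ on the gene's strand, with the matched pattern in capitals.

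Ndufb4, chr16:37654515-37654594, reverse strand: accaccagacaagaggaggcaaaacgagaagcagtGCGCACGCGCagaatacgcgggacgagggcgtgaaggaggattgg

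Sdha, chr13:74350294-74350373, reverse strand: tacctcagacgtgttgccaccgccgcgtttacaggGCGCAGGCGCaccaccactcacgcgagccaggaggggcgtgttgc

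Sdhd, chr9:50603884-50603963, reverse strand: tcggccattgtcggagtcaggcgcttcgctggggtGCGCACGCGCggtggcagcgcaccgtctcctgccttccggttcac

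Cox6a1, chr5:115349076-115349155, reverse strand: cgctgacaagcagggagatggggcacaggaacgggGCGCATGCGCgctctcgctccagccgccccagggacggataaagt

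The 4 stretches come from complexes I, II and IV, and the pattern begins 191, 98, 79 and 162 bases before the start in the order printed. In the Sdhd stretch, the ETS-like letters lie further towards the start, 46 bases before it, on the opposite strand.

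Summed over the 78 nuclear genes, the CD44+ libraries stood at 12321, 14716 and 18126 CPM and the CD44- libraries at 8440, 10965 and 11416 CPM in replicates 1, 2 and 3. The lowest CD44+ library lay above the highest CD44- library, and the CD44+ library was higher in each pair, by 1.46, 1.34 and 1.59 times. The means were 15054 ± 2917 and 10274 ± 1604 CPM (SD, n = 3 libraries), a mean log2 difference of 0.55. Markers of stromal cells ran opposite to this difference, at 167, 1353 and 867 CPM summed over their list in the CD44+ libraries and at 5502, 11574 and 28880 CPM in the CD44- libraries, lower in CD44+ for 8 of 8 tested. Without the wells in which that list held 1% or more, the mean log2 difference of the nuclear sum was 0.42 and the sorts overlapped, with CD44- replicate 3 at 14025 CPM. CD44+ was still higher in each pair, at 12321, 14878 and 18258 CPM against 8761, 11399 and 14025 CPM. The exact permutation test over the 6 libraries gave p = 0.1, two-sided, which is the smallest p that 3 against 3 allow and was 0.6 after adjustment over 6 such comparisons. The sums rest on 1845, 16463 and 30947 nuclear chain transcripts in the CD44+ libraries and on 819, 1111 and 1812 in the CD44- libraries. Counting error was small beside the spread between libraries: the 95% Wilson interval of the shallowest library, CD44- replicate 1, ran from 7883 to 9035 CPM. Such intervals cover counting error only. The sums of replicate 1 also depended on wells rich in transcripts of Kcnq1ot1. Without wells with Kcnq1ot1 at 10% or more, they were 17837 CPM in CD44+ and 11971 CPM in CD44-.

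The difference in the nuclear sum depended on how wells were weighed. When each well was thinned to 1000 transcripts, so that all wells weighed the same, the CD44+ libraries stood at 10107, 8779 and 13828 CPM and the CD44- libraries at 8864, 11292 and 10919 CPM. The sorts then overlapped, CD44- was higher in pair 2, and the mean log2 difference was 0.06. The median well was compared next. Nuclear chain genes made up 0.663%, 0.641% and 1.53% of the transcripts of the median CD44+ well and 0.696%, 1.12% and 1.07% of the median CD44- well (log2 difference -0.12, exact permutation p = 0.8). The CD44+ median was the higher one in pair 3 only, so the order of the library sums did not hold for the median well.

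**Figure D1:**
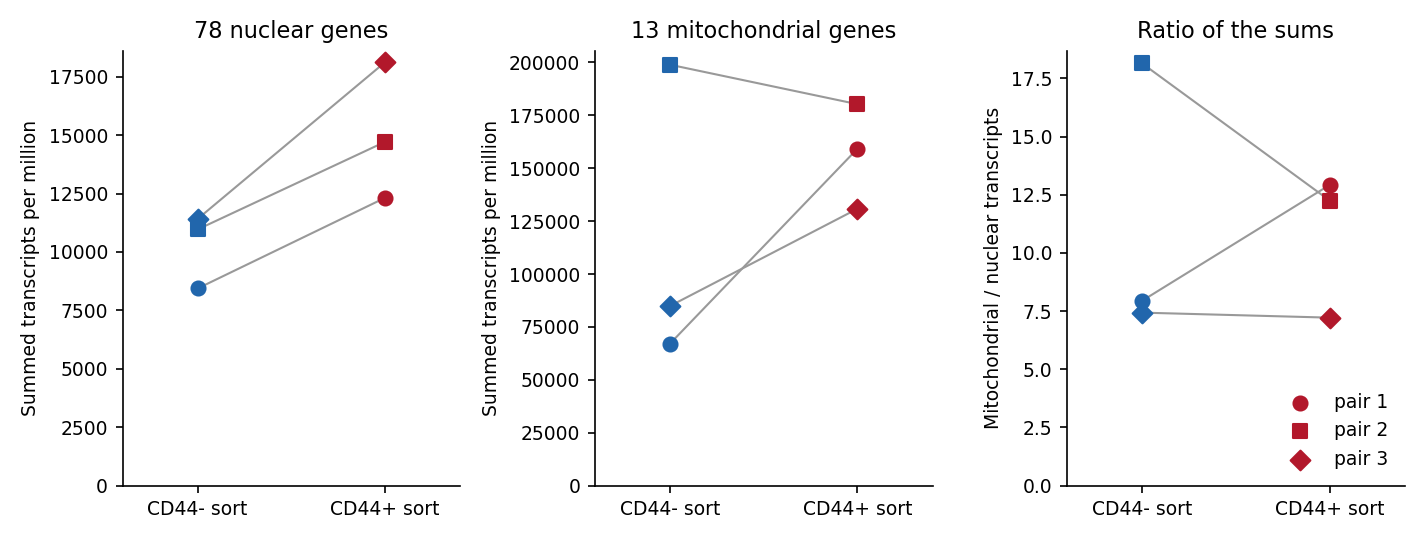
Summed CPM of the 78 nuclear genes (left) and 13 mitochondrial genes (middle) and the ratio of the sums (right) in each library, with 1 point per library and lines joining same-numbered pairs. The 3 CD44+ libraries lie above the 3 CD44- libraries for the nuclear sum (12321 to 18126 against 8440 to 11416), whereas the mitochondrial sum and the ratio overlap.

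The 13 mitochondrial genes took up far more of each library and did not separate the sorts. The CD44+ libraries stood at 159215, 180237 and 130841 CPM and the CD44- libraries at 67058, 198892 and 84864 CPM. CD44- replicate 2 held the highest value of all 6 libraries and the other CD44- libraries the lowest, so pair 2 ran opposite to pairs 1 and 3 (pair log2 differences 1.25, -0.14 and 0.62, exact permutation p = 0.4). Without CD44- replicate 2 the mean log2 difference was 1.04 in place of 0.58.

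The ratio of mitochondrial to nuclear chain transcripts was 12.9, 12.2 and 7.22 in the CD44+ libraries and 7.95, 18.1 and 7.43 in the CD44- libraries. The sorts overlapped, with CD44- replicate 2 above every CD44+ library (mean log2 difference 0.03, exact permutation p = 1). This value depended on the wells: it was 0.75 with each well thinned to 1000 transcripts, and 0.76 and 1.21 without the early erythroid wells described below at limits of 1% and 0.5%. The direction changed from pair to pair, with log2 differences of 0.70, -0.57 and -0.04. In the median well the ratio, taken after adding 1 transcript to each sum, was 15.7, 20.2 and 8.31 for CD44+ and 5.69, 20.3 and 11.7 for CD44-. Its exact permutation p was 0.7.

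The makeup of the nuclear sum by complex varied most in relative terms for complex II. Complex V gave between 36.3% and 38.7% of nuclear chain transcripts in all 6 libraries, complex I between 28.4% and 31.3%, complex IV between 18.3% and 23.4%, complex III between 8.06% and 10.2% and complex II between 1.53% and 3.79%. Each complex was higher in the CD44+ library of every pair. The pair log2 differences were 0.57, 0.39 and 0.55 for complex I, 0.49, 1.65 and 0.77 for complex II, 0.89, 0.49 and 0.73 for complex III, 0.50, 0.32 and 0.75 for complex IV, and 0.48, 0.42 and 0.69 for complex V. The sums of complexes II, III and V did not overlap between the sorts, and those of complexes I and IV did.

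Gene by gene, 70 of the 78 nuclear genes had enough counts for edgeR's quasi-likelihood test, and 0 were called at an adjusted p of 0.05, against 1.02% of all 2463 genes tested that were called in either direction, 0.0406% higher and 0.974% lower in CD44+. Of the 70, 61 had a log2 difference above 0, against 47.5% of all genes tested. Their median was 0.52, beside -0.04 for all genes tested. At an unadjusted p under 0.05, 15 of the 70 were higher in CD44+ and 0 lower, where 9.58% of all genes tested were higher at that p. All 3 CD44+ libraries lay above all 3 CD44- libraries for 28 of the 70 (40%), against 16.8% of all genes tested, and below them for 1, against 9.22%. In 45 of the 70 the CD44+ library was higher in all 3 pairs, against 29% of all genes tested. DESeq2, run as an alternative, called 3 nuclear genes higher, Ndufb8, Ndufb4 and Cox5b, against 3.99% of its genes. With an interaction of sort and flow cell, edgeR called 0 genes, and 1 nuclear chain gene, Uqcr11, was among the 3.53% of all genes at an unadjusted p under 0.05. Genes of ribosomal proteins, which are not of the chain, stood higher too: 68 of 69 tested genes whose names begin with Rpl or Rps had a log2 difference above 0, with a median of 0.71. Without the block edgeR called 0 of them, and with it 8, all higher. Whether the 2 patterns share a source was not tested.

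**Figure D2:**
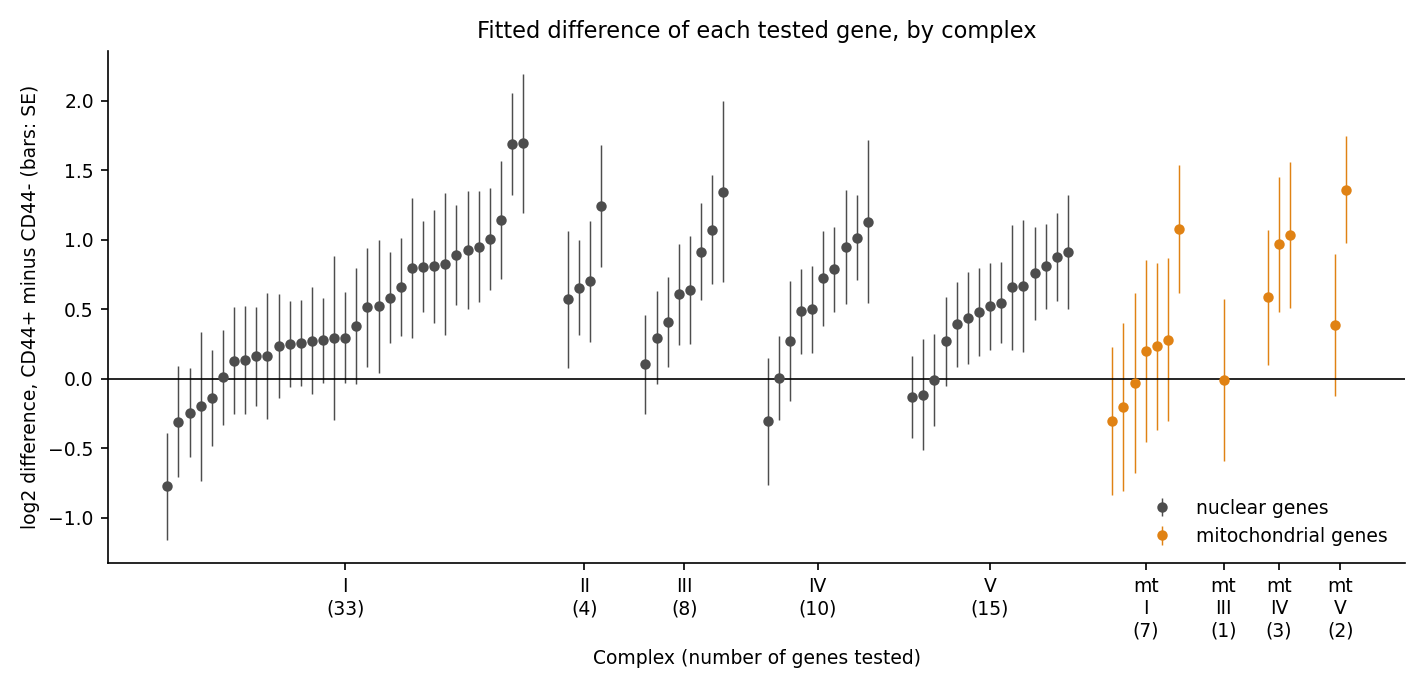
Fitted log2 difference of CD44+ minus CD44- for each tested gene (points, edgeR) with its SE (bars), ordered within each complex; grey marks the 70 nuclear genes and orange the 13 mitochondrial genes. Of the nuclear genes 61 lie above 0, and the 3 mitochondrial genes of complex IV lie above 6 of the 7 of complex I and the 1 of complex III.

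Ndufb8, a subunit of the membrane arm of complex I (chromosome 19 from 44548572 to 44555440 on the reverse strand, GRCm38, GENCODE vM21), was the nuclear chain gene with the smallest p. It stood at 140, 146 and 184 CPM in the CD44+ libraries and at 41.2, 59.2 and 37.8 CPM in the CD44- libraries. The sorts did not overlap, but the CD44- values rest on 4, 6 and 6 transcripts. The log2 difference was 1.69 (SE 0.37, edgeR adjusted p = 0.0749). Blocking on the pair left it at 1.69 (SE 0.44, edgeR adjusted p = 0.0485). That fit called 1 nuclear chain gene, against 6.33% of all genes, 1.75% higher and 4.59% lower in CD44+. At an unadjusted p under 0.05 it held 16 of the 70 nuclear genes, all higher, against 24.9% of all genes in either direction and 10.9% higher. Without the wells rich in early erythroid markers described below, the log2 difference of Ndufb8 was 1.63. Over 22 alternatives it ran from 1.38 to 2.16.

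Ndufb4, another membrane arm subunit, was measured at 120, 115 and 142 CPM in the CD44+ sort and at 10.3, 29.6 and 63.0 CPM in the CD44- sort, where 1, 3 and 10 transcripts were counted. Its log2 difference was 1.69 (SE 0.50, edgeR adjusted p = 0.136). The 3 complex I genes of highest mean CPM, Ndufa4, Ndufc2 and Ndufa1, overlapped between the sorts. Ndufa4 ranged from 93.5 to 336 CPM in the CD44+ sort and from 30.9 to 233 in the CD44- sort. Ndufc2 stood at 200, 175 and 201 CPM against 92.7, 197 and 202, and Ndufa1 at 134, 118 and 169 against 155, 158 and 151. Ndufs4, an accessory subunit of the electron-accepting arm named because it was the only tested chain gene lower in every pair, stood at 66.8, 66.2 and 62.7 CPM in the CD44+ sort and at 113, 78.9 and 113 CPM in the CD44- sort. The least detected complex I gene, Ndufa4l2, gave a single transcript in CD44- replicate 3 and none in the other libraries.

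Complex II has 4 subunits, all nuclear. Its catalytic flavoprotein Sdha stood at 134, 192 and 177 CPM in the CD44+ sort and at 92.7, 69.1 and 132 CPM in the CD44- sort (log2 difference 0.66, SE 0.34, edgeR adjusted p = 0.325). Without the wells in which early erythroid markers reached 0.5%, it was 0.08. The iron-sulphur subunit Sdhb stood at 86.8, 143 and 142 CPM against 103, 39.5 and 69.3 CPM, so pair 1 ran the other way. The membrane anchor Sdhc was alike in pair 1, at 60.1 against 61.8 CPM, and higher in CD44+ in pairs 2 and 3, at 83.2 and 125 against 19.7 and 81.9 CPM. The other anchor, Sdhd, had the largest difference of the 4, at 167, 108 and 145 CPM against 61.8, 39.5 and 63.0 CPM (log2 difference 1.24, SE 0.44, edgeR adjusted p = 0.19). Between 2 and 21 transcripts of each of these genes were counted in the CD44- libraries, which limits what the 4 can show.

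In complex III, Uqcrq and Uqcrh, small subunits, and Uqcrfs1, the Rieske iron-sulphur protein, had the highest mean CPM. Uqcrq stood at 220, 222 and 249 CPM in the CD44+ sort and at 144, 306 and 164 CPM in the CD44- sort, which overlapped. Uqcrh stood at 240, 265 and 295 CPM against 103, 128 and 265 CPM, higher in every pair but overlapping. Uqcrfs1 stood at 174, 157 and 272 CPM against 124, 138 and 195 CPM. The core protein Uqcrc2 did not overlap, at 180, 168 and 245 CPM against 61.8, 59.2 and 139 CPM (log2 difference 1.07, SE 0.39, edgeR adjusted p = 0.198). Without the wells in which early erythroid markers reached 0.5%, it was 0.29. Uqcr10, the complex III gene with the lowest mean, stood at 100.3, 124 and 152 CPM against 41.2, 118 and 69.3 CPM.

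In complex IV, 6 of the 10 tested nuclear genes did not overlap and were higher in CD44+, where 16.8% of all genes tested were. Cox5b, which binds zinc on the matrix side, stood at 348, 328 and 399 CPM in the CD44+ sort and at 134, 168 and 202 CPM in the CD44- sort (log2 difference 1.01, SE 0.31, edgeR adjusted p = 0.141). Without the wells in which early erythroid markers reached 0.5%, its log2 difference was 0.12. Cox6a1, the form of subunit VIa found outside muscle, stood at 321, 549 and 632 CPM against 227, 316 and 258 CPM (log2 difference 0.79, SE 0.30, edgeR adjusted p = 0.22). With each well thinned to 1000 transcripts it was 0.21. Cox8a and Cox6c, other small subunits, overlapped between the sorts. Cox8a stood at 301, 582 and 555 CPM against 237, 958 and 485 CPM, with its highest value in CD44- replicate 2, and Cox6c at 220, 324 and 367 against 227, 247 and 372 CPM.

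Several complex IV subunits have tissue-specific forms. The muscle form Cox7a1 gave 1.79 and 1.17 CPM in CD44+ replicates 2 and 3 and no transcript elsewhere, while its ubiquitous counterpart Cox7a2 stood between 134 and 224 CPM in the CD44+ sort and between 107 and 124 CPM in the CD44- sort. The muscle form Cox6a2 gave 51.5 CPM, from 5 transcripts, in CD44- replicate 1 and 2.68 CPM in CD44+ replicate 2, and none in the other libraries. Cox6b2, a form best known from testis, was detected in all 6 libraries, at 53.4, 66.2 and 117 CPM in the CD44+ sort and at 10.3, 69.1 and 25.2 CPM in the CD44- sort. The ubiquitous Cox6b1 stood at 227, 339 and 345 CPM against 196, 187 and 126 CPM. Cox7a2l, a factor in joining complexes III and IV, stood at 140, 235 and 185 CPM against 185, 69.1 and 170 CPM.

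The catalytic subunit of the ATP synthase, Atp5b, had the highest mean CPM of the nuclear chain genes. It stood at 722, 787 and 1135 CPM in the CD44+ sort and at 422, 385 and 599 CPM in the CD44- sort, without overlap (log2 difference 0.81, SE 0.31, edgeR adjusted p = 0.213). Without the wells in which early erythroid markers reached 0.5%, it was 0.18. Its partner Atp5a1 stood at 541, 624 and 769 CPM against 340, 375 and 529 CPM (log2 difference 0.55, SE 0.29, edgeR adjusted p = 0.338). The 3 genes of subunit c, which encode the same mature protein behind different import signals, differed. Atp5g1 stood at 207, 284 and 495 CPM against 72.1, 187 and 227 CPM (log2 difference 0.91, and 0.06 without those wells). Atp5g2 stood at 314, 430 and 454 CPM against 268, 345 and 208 CPM, and Atp5g3 at 455, 626 and 720 CPM against 340, 801 and 574 CPM. Atp5g1 and Atp5g2 were higher in CD44+ in all 3 pairs, Atp5g3 in 2. Atp5s was the least detected, at 6.68, 17.0 and 18.7 CPM against 0, 29.6 and 0 CPM. Reads of near-identical gene copies may have been split by the counting, which the sources used here do not describe.

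Of the 13 mitochondrial genes, 0 were called by edgeR without the block, 9 had a log2 difference above 0, and their median was 0.28. At an unadjusted p under 0.05, 2 were higher, mtAtp8 and mtNd6. Of all genes tested, 9.58% were higher at that p and 19.1% were under it in either direction. mtAtp8, a short subunit of complex V (positions 7766 to 7969 of the mitochondrial genome), stood at 407, 1168 and 1323 CPM in the CD44+ sort and at 258, 345 and 416 CPM in the CD44- sort, where CD44+ replicate 1 lay just under the highest CD44- library. Its log2 difference was 1.36 (SE 0.38, edgeR adjusted p = 0.127), and 1.30 in the blocked fit (SE 0.31, edgeR adjusted p = 0.0341). It was the 1 gene of the 13 called by the blocked fit, which called 6.33% of all genes tested, 1.75% higher and 4.59% lower in CD44+. The end of mtAtp8 overlaps the start of mtAtp6, from position 7927, so reads between the 2 genes are uncertain. mtNd6, the one member read from the other strand of the circle, stood at 100.2, 212 and 171 CPM against 20.6, 98.7 and 94.5 CPM.

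The complex IV sum of the mitochondrial genes did not overlap between the sorts, and the sums of complexes I, III and V did. mtCo1, the catalytic subunit of cytochrome oxidase, stood at 34998, 26517 and 22723 CPM in the CD44+ sort and at 14576, 15327 and 9803 CPM in the CD44- sort (log2 difference 1.03, SE 0.52, edgeR adjusted p = 0.313). mtCo3 stood at 13341, 13208 and 9585 CPM against 5033, 8955 and 3888 CPM (log2 difference 0.97, SE 0.49, edgeR adjusted p = 0.309). Neither overlapped. Without the wells in which early erythroid markers reached 0.5%, the differences were 1.83 and 1.76. mtCo2 stood at 20749, 21358 and 15579 CPM against 9924, 18124 and 9203 CPM. In contrast, mtNd4 of complex I stood at 14354, 21476 and 13503 CPM against 6140, 33015 and 9960 CPM, and mtCytb of complex III at 13566, 18094 and 11674 CPM against 6371, 26706 and 9548 CPM. In both, CD44- replicate 2 lay above every CD44+ library. mtNd1, mtNd2, mtNd3, mtNd4l and mtAtp6 had the same order, with CD44- replicate 2 highest and CD44- replicate 1 lowest. mtNd5 too was highest in CD44- replicate 2, at 11413 CPM.

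The makeup of the mitochondrial sum varied between libraries, and the share of each of the 13 genes overlapped between the sorts. mtCo1 made up 21.98%, 14.7% and 17.4% of the mitochondrial sum in the CD44+ libraries and 21.7%, 7.71% and 11.6% in the CD44- libraries. The ratio of mtCo1 to mtNd4 was 2.44 and 2.37 in the 2 libraries of pair 1, 1.23 and 0.464 in pair 2, and 1.68 and 0.984 in pair 3. Pair 1 came from 1 flow cell and pairs 2 and 3 from the other, so flow cell, plate and preparation cannot be told apart here. Within pairs 2 and 3, which share plates, the ratio was higher in the CD44+ wells. Within wells grouped by cell type markers the ratio also varied: wells rich in neutrophil markers stood at 2.05, 0.715 and 1.96 in the CD44+ libraries and at 2.07 and 0.449 in CD44- replicates 1 and 2.

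**Figure D3:**
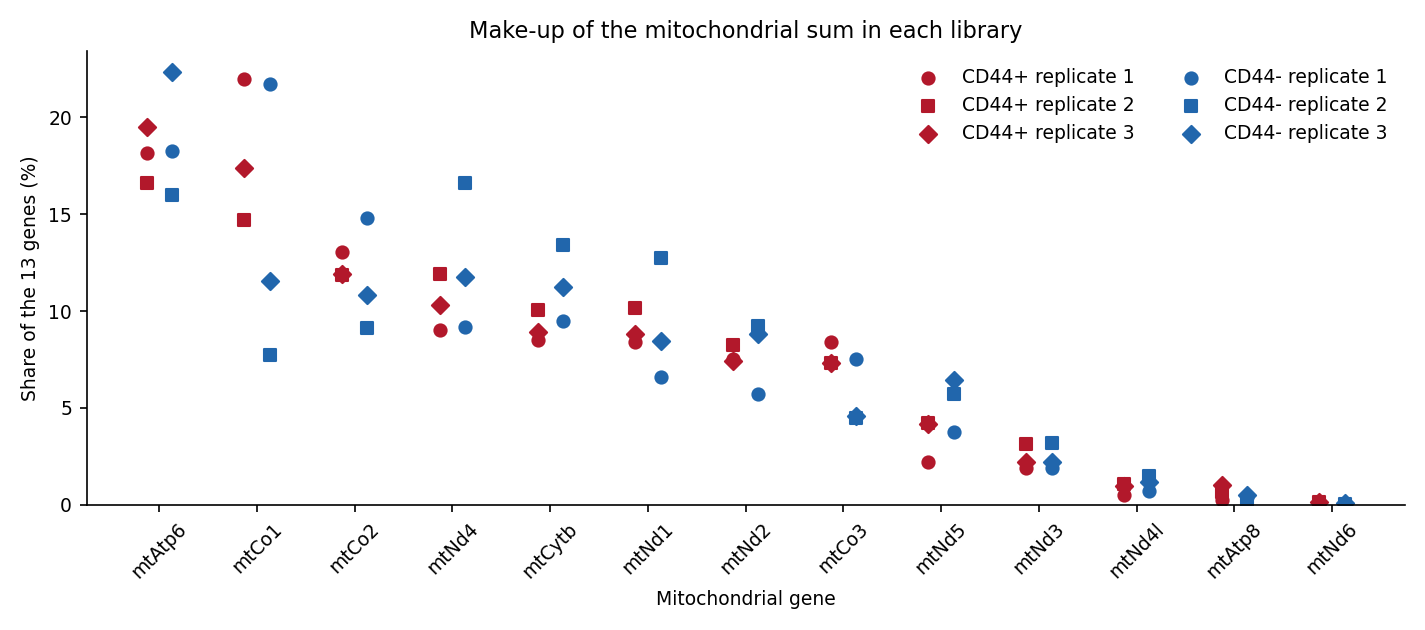
Share of each of the 13 mitochondrial genes in the mitochondrial sum of each library (points; red for CD44+, blue for CD44-, shape for the replicate). mtCo1 spans 7.71% to 21.98% and is lowest in CD44- replicate 2, where mtNd4 is highest at 16.6%.

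Single wells spread far more widely than library sums. The mitochondrial part of a well, here with rRNA and all other rows of the mitochondrial genome included, ran from 0.516% to 92.4% of its transcripts. Of the 343 wells, 49 were over 50% mitochondrial and all 49 were in the CD44+ sort, 4, 34 and 11 wells or 7.14%, 35.8% and 12.6% of the 3 libraries. None of the 44, 24 and 37 CD44- wells was, and the highest CD44- well reached 38.0%. The upper 95% Wilson limits of these CD44- shares were 8.03%, 13.8% and 9.41% in replicates 1, 2 and 3. Such limits treat the wells of a library as independent and do not cover variation between libraries. Over the libraries, the exact permutation test gave p = 0.1, the smallest possible. The wells nearest the limit stood at 49.7% and 51.6%.

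The 49 wells were then compared with the other wells. Nuclear chain genes made up 0.203% of transcripts in the median of those wells and 1.12% in the median of the others. Set against non-mitochondrial transcripts alone, which removes the room the mitochondrial transcripts take, the medians were 0.801% and 1.49%. Within the CD44+ libraries these medians were 0.909% and 1.03% in replicate 1, 0.864% and 1.42% in replicate 2, and 0.788% and 2.09% in replicate 3. Wells with no marker list in CD44+ replicate 1, most of them under the limit, stood at 0.318%. The median ratio of mitochondrial to nuclear chain transcripts was 235 in the 49 wells and 8.996 in the others. Since the wells were picked by their mitochondrial share, the ratio and the share of all transcripts follow from the choice. The makeup of their mitochondrial RNA by complex was close to that of the other CD44+ wells, with complex IV at 35.7% and 35.8% and complex I at 37.0% and 35.4%. No marker list of a blood or stromal lineage reached 1% of transcripts in any of the 49. That limit was set on all transcripts, of which mitochondrial ones made up 73.6% in the median of these wells. It was therefore harder to reach there, and its absence does not show that the wells lacked lineage markers. The 49 wells held 14.97%, 48.4% and 17.2% of the mitochondrial chain transcripts of the CD44+ libraries, but 1.25%, 2.99% and 0.724% of the nuclear ones.

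Leaving those wells out raised the nuclear sums of the CD44+ libraries and lowered the mitochondrial ones. Both moved most in replicate 2, which had stood at 14716 and 180237 CPM. The CD44+ libraries then stood at 12745, 17142 and 18928 CPM for the nuclear genes and at 141794, 111721 and 113919 CPM for the mitochondrial genes. The CD44+ ratios were then 11.1, 6.52 and 6.02, the mean log2 difference of the ratio turned to -0.43, and the median log2 difference of the 13 mitochondrial genes turned from 0.28 to -0.15. The median nuclear share of a CD44+ well became 0.842%, 1.15% and 1.77%, higher than CD44- by a mean log2 difference of 0.35 in place of -0.12. The nuclear sums did not overlap between the sorts with or without these wells.

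**Figure D4:**
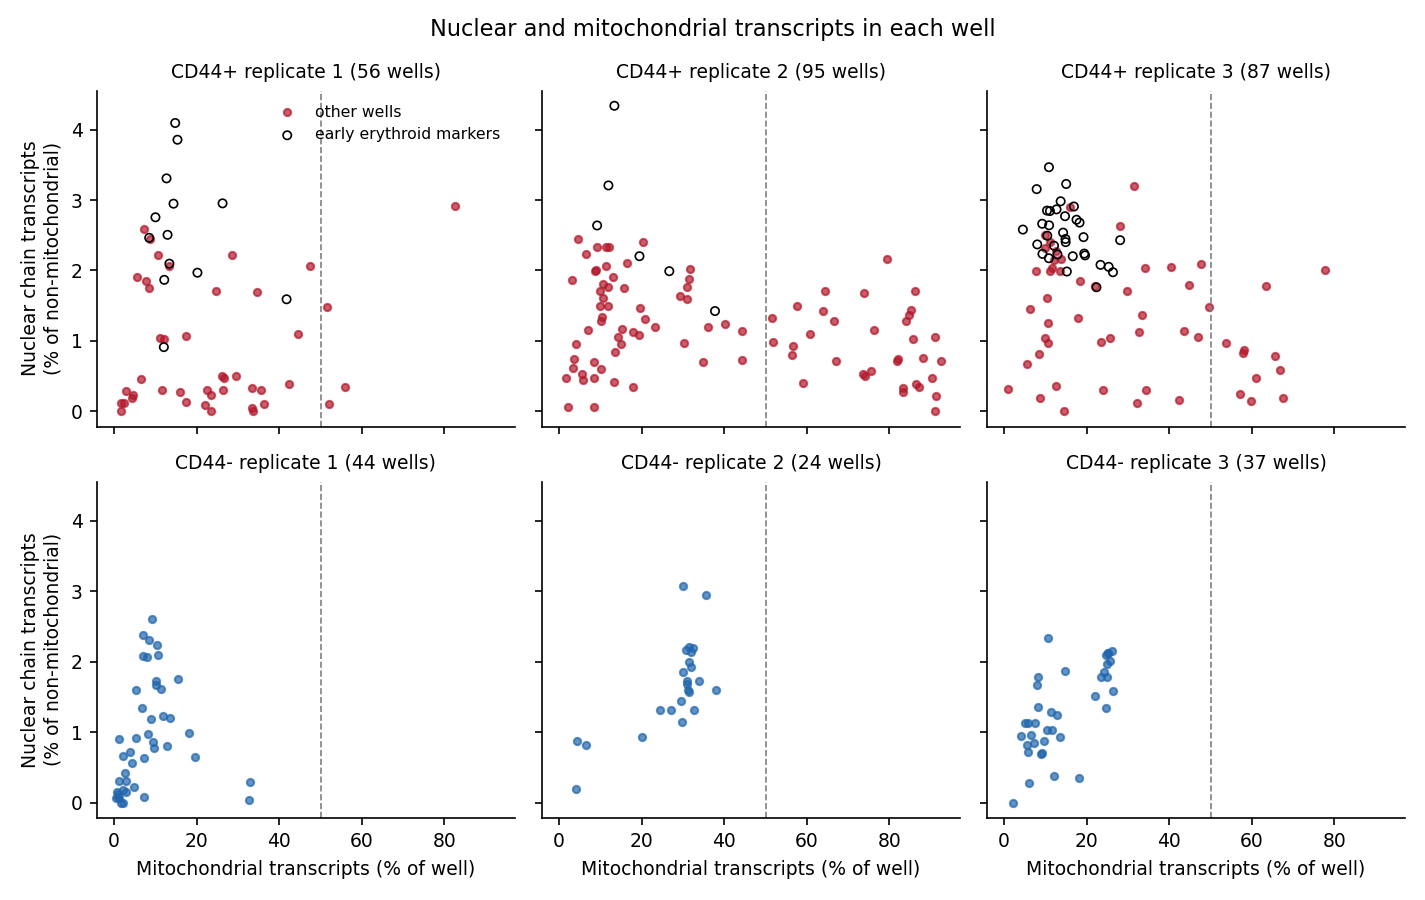
Each point is a well: mitochondrial share of its transcripts (x axis, percent) against nuclear chain transcripts as a percent of its non-mitochondrial transcripts (y axis), by library; open circles mark wells with early erythroid markers and the dashed line marks 50%. All 49 wells right of the line are CD44+, and in CD44- replicate 2 most wells sit in a narrow band near 31%.

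In CD44- replicate 2 most wells had a similar mitochondrial part. In 21 of its 24 wells the mitochondrial part lay between 20.2% and 38.0%, and the median was 30.9%. The wells of the same rows that held at least 100 but under 1000 transcripts, and so were not used, had a median of 30.9% as well, a ratio of mtCo1 to mtNd4 of 0.483 beside 0.464 in the wells used, and a ratio of mitochondrial to nuclear chain transcripts of 22.2 beside 18.1. The shallow CD44+ wells of the same plate stood at 30.4%, so this level was found in both sorts. In CD44- replicate 3, 12 of 37 wells lay between 22.1% and 26.5% with no marker list at 1%, and its shallow wells had a median of 22.6%, beside 24.4% in the shallow CD44+ wells of that plate. In CD44- replicate 1 the corresponding medians were 7.11% in the wells used and 9.68% in the shallow ones, and in CD44+ replicate 1, from another plate, 16.7% and 19.5%. Whether the wells used and the shallow wells share a source of these transcripts was not tested.

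Across wells, the relation of nuclear to mitochondrial transcripts had different signs in the sorts. Between the mitochondrial share of a well and the nuclear chain share of its other transcripts, Spearman's rho was 0.52, 0.66 and 0.66 in the CD44- libraries of 44, 24 and 37 wells, and -0.07, -0.26 and -0.36 in the CD44+ libraries of 56, 95 and 87 wells. The CD44+ values include the 4, 34 and 11 wells over 50% mitochondrial, a kind of well that the CD44- libraries did not hold. The part of those wells in the signs was not tested. These are descriptions of wells that share a library and a range of depth, and the difference between the sorts was not tested.

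Sorted by lineage markers, the wells differed in their nuclear chain share. A well was given to a marker list when the list held at least 1% of its transcripts and more than any other list. Wells with early erythroid markers such as Car1, Klf1 and Rhd, 52 in number and all CD44+, had a median nuclear chain share of 2.18%. Their medians were 2.18%, 2.08% and 2.17% in CD44+ replicates 1, 2 and 3, although their median depth ran from 2481 to 31974 transcripts. The remaining wells up to 50% mitochondrial in the same libraries stood at 0.278%, 1.08% and 1.10%. In CD44+ replicate 1, transcripts of Kcnq1ot1 made up 14.3% of the median well with no marker list and 0.198% of the median early erythroid well. Without wells with Kcnq1ot1 at 10% or more, the median nuclear chain share of that library was 1.60% in place of 0.663%. Thinned to 1000 transcripts, the medians were 2.20%, 2.10% and 2.10% for the early erythroid wells and 0.30%, 1.00% and 1.10% for the others. Thinning leaves the expected share of a well unchanged, so it cannot show whether depth had a part in the gap. The mitochondrial chain share of early erythroid wells was 11.4%, 13.7% and 11.6% against 14.8%, 8.07% and 10.4% in the others, lower in replicate 1 and higher in replicates 2 and 3.

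Wells of the other lists had lower medians. The median share was 1.13% in 54 wells with neutrophil markers, 1.10% in 30 with B lineage markers, 0.991% in 23 with late erythroid markers, 0.770% in 19 with stromal markers and 0.436% in 165 wells with no list at 1%. Those 165 include all 49 wells over 50% mitochondrial, whose share and ratio follow from how they were picked. In CD44+ replicates 1, 2 and 3, late erythroid wells had medians of 0.233%, 1.27% and 1.88%, from 2, 2 and 6 wells. In CD44- replicates 1, 2 and 3 they had 0.889%, 0.991% and 0.536%, from 8, 1 and 4 wells. The 1.88% lay near the 2.17% of early erythroid wells in the same library. The median ratio of mitochondrial to nuclear chain transcripts was 5.05 in early erythroid, 5.79 in late erythroid, 6.01 in stromal, 8.005 in B lineage and 10.8 in neutrophil wells, and 31.6 in wells with no list. These medians pool libraries that differed. Neutrophil wells had median ratios of 9.34, 4.43 and 7.90 in CD44+ replicates 1, 2 and 3, and of 4.37 and 20.3 in CD44- replicates 1 and 2. The order of the lists by ratio therefore did not hold in each library. CD44- replicate 2 stood apart among neutrophil wells: 18 of 24 wells fell to that list with a mitochondrial chain share of 26.7%, against 4.35% to 8.78% in the other 4 libraries with such wells. The limit of 1% lay close to many wells: 36 of the 52 early erythroid wells lay between 1% and 1.5%.

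**Figure D5:**
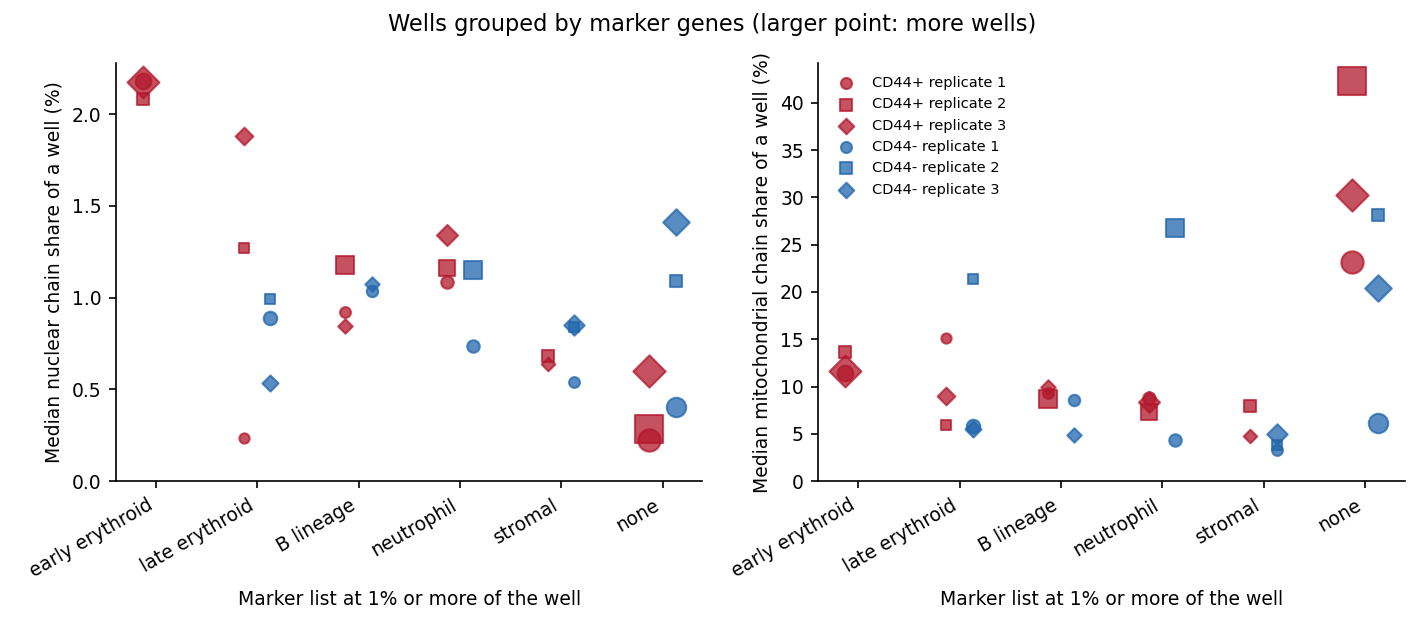
Median nuclear (left) and mitochondrial (right) chain share of a well, in percent, for wells grouped by their leading marker list; 1 point per library (red CD44+, blue CD44-), larger where more wells enter. Early erythroid wells stand at 2.08% to 2.18% nuclear share in all 3 CD44+ libraries, and neutrophil wells of CD44- replicate 2 stand apart at 26.7% mitochondrial share.

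The early erythroid wells held a large share of the nuclear sum of the CD44+ sort. Early erythroid wells were 23.2%, 6.32% and 37.9% of the CD44+ wells and held 62.0%, 31.0% and 73.3% of the nuclear chain transcripts. Of all transcripts of these libraries they held 34.1%, 20.7% and 62.8%. Without them the CD44+ libraries stood at 7109, 12808 and 13023 CPM, the CD44- libraries were as before, CD44- was higher in pair 1 and the mean log2 difference of the nuclear sum was 0.06 in place of 0.55. With a lower limit, leaving out the 95 wells in which the list held 0.5% or more (77 CD44+ and 18 CD44-), the difference was -0.21. Both limits were chosen after the data were seen. The median of the 70 gene-wise log2 differences fell from 0.52 to 0.31 without the 52 wells. Summed over a library, the 12 early erythroid markers stood at 6995, 4416 and 10214 CPM in the CD44+ sort and at 1703, 1717 and 2641 CPM in the CD44- sort. Early erythroid wells differ in more than the chain, and the part of each gene was not tested.

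Genes that work with the chain but fall outside its name rule were read from lists. Of 8 further subunits, 7 were tested and 7 had a log2 difference above 0, with a median of 0.57. Atpif1, which stops the synthase from running in reverse and is known for its part in haem synthesis, stood at 501, 333 and 648 CPM in the CD44+ sort and at 155, 98.7 and 202 CPM in the CD44- sort (log2 difference 1.61, SE 0.42, edgeR adjusted p = 0.113). In the blocked fit its edgeR adjusted p was 0.0162. Cox4i1, the common form of subunit IV, stood at 461, 449 and 495 CPM against 227, 237 and 403 CPM. Of the citric acid cycle list, 13 genes were tested, 11 lay above 0 with a median of 0.49, and 0 were called. The gene of that list with the highest mean CPM, Ogdh of the oxoglutarate dehydrogenase complex, was lower in CD44+ in each pair, at 127, 219 and 208 CPM against 196, 336 and 365 CPM.

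Of 9 tested glycolysis genes, 4 lay above 0, the median was -0.11 and 0 were called. Ldha, lactate dehydrogenase A, stood at 301, 483 and 555 CPM against 206, 543 and 277 CPM. Assembly factors and regulators were mostly too weakly counted: 1 of 14 complex I assembly genes, 2 of 26 for complexes II to V, 2 of 11 for mitochondrial DNA and transcription and 1 of 9 nuclear regulators in the tables could be tested, and none of these 6 was called. Acad9, a complex I assembly factor, followed the pair, at 715 and 732 CPM in CD44+ and CD44- replicate 1, 122 and 98.7 CPM in replicate 2 and 127 and 214 CPM in replicate 3. The copper chaperone Cox17 stood at 227, 140 and 254 CPM in the CD44+ sort and at 72.1, 178 and 164 CPM in the CD44- sort, and the transcription factor Yy1 at 73.5, 74.2 and 98.4 CPM against 61.8, 118 and 132 CPM, both overlapping. The RNA-stabilising pair Lrpprc and Slirp stood at 142 to 167 and 80.2 to 85.9 CPM in the CD44+ sort and at 82.4 to 187 and 61.8 to 75.6 CPM in the CD44- sort.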

How the data were processed

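SORT-seq transcripts of single sorted wells were analysed for 4 plates. The submitters' processing notes name BWA 0.7.15 and build mm10. For the counter, the annotation and strand, nothing is given in the sources used here. The authors deposited expected counts: transcripts per gene and well estimated from molecular identifiers, unscaled. Plain counts had been assumed. High values follow a correction for 4096 possible identifiers, inferred from the values, which adds 0.67% to 8.34% to the mitochondrial sums. On the shared plates, wells 1 to 192 were taken as CD44+ and from 193 as CD44-, reading wells in row order, which the labels do not state; spike-in medians in the last 3 columns were 42.2 and 59.4 times lower there, and 1.22 and 1.35 times on the other plates.

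Wells with at least 1000 gene transcripts were summed per plate and sort, and the sums rounded. Doublets were not called, since each well received 1 sorted cell per the labels. The 6 libraries were compared with edgeR 4.0.16 in R 4.3.3 (TMM, filterByExpr, quasi-likelihood, Benjamini-Hochberg over all genes, threshold 0.05, two-sided; SE is the log2 difference over the root of F), and by exact permutation in Python 3.11.15. The order of single genes within a pair was read after adding 10 CPM. The fit was tested on simulated data. Because the labels tie no library to an animal, p-values reflect only variation among the 6 libraries, possibly technical.

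Same-numbered libraries correlated in their deviations from the sort mean (0.42, 0.29 and 0.34) and replicates 2 and 3 share plates, so a fit with the pair as block is given where it changes a call. Members and lists were chosen with earlier results of these data known. Genes named were all mitochondrial members, the complex II genes, the 3 most counted and the least detected of each other nuclear complex, genes called in either fit, paralogs, and the leading gene of each list; Ndufb4, Cox5b, Uqcrc2 and Ndufs4 were added after their values were seen, as were the left-out early erythroid and Kcnq1ot1 wells.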

Additional observations from a re-analysis of the deposited data

Results flagged for a closer look

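With all transcripts of the wells used, the ratio of mitochondrial to nuclear chain transcripts was higher in CD44+ in pair 1 only. In the library sums it was higher in CD44+ in pair 1, by 0.70 on the log2 scale, and lower in pairs 2 and 3, with -0.57 and -0.04. In the median well it was higher in CD44+ by 1.46 in pair 1 and lower in pairs 2 and 3, with -0.01 and -0.49. Pair 1 is 1 pair of whole plates from 1 flow cell, so this difference was not tested, and 2 of the values lie near 0. Gene by gene, edgeR's interaction of sort and flow cell called 0 of 2463 genes, with 87 (3.53%) at an unadjusted p under 0.05.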

How the results depend on the processing

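Values are mean log2 differences of CD44+ minus CD44-. The nuclear sum was 0.55 and ran from -0.21 (without wells with early erythroid markers at 0.5% or more) to 0.68 over 18 alternatives; leaving out 1 library gave 0.40 to 0.68. The mitochondrial sum ran from 0.22 to 1.04. The ratio, 0.03, was 0.75 with wells thinned to 1000 transcripts, 0.76 and 1.21 without wells with early erythroid markers at 1% and at 0.5% or more, and reversed to -0.43 without wells over 50% mitochondrial, -0.0052 and -0.065 with minimums of 500 and 2000 transcripts, -0.045 without stromal wells and -0.30 on the shared plates alone; leaving out 1 library gave -0.20 to 0.44. The median nuclear share, -0.12, reversed to 0.35 without wells over 50% mitochondrial, 0.38 with the minimum of 2000 and 0.17 without wells with Kcnq1ot1 at 10% or more (-0.53 to 0.10 without 1 library). The median mitochondrial share, 0.45, turned to -0.033 without wells over 50% mitochondrial (0.0024 to 1.11 without 1 library). The median ratio per well, 0.32, was 1.19 and 1.85 without those erythroid wells and turned to -0.32 without wells over 50% mitochondrial and to -0.25 on the shared plates (-0.16 to 0.76 without 1 library), and the median of the 13 mitochondrial genes to -0.15 without wells over 50% mitochondrial. The causes were not tested.

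In place of 0 nuclear genes called, DESeq2 1.42.0 called 3 (Ndufb8, Ndufb4 and Cox5b; 3.99% of all its genes were higher), no filter on low counts 2, and the replicate block 1, also without wells over 50% mitochondrial. In place of 0 mitochondrial genes, 1 was called by DESeq2, with no filter, with the replicate block, and with the block without early erythroid wells or without CD44+ replicate 1. Among the members the block changed no other call; over all genes it raised the calls from 25 to 156, among them Atpif1 and 8 ribosomal protein genes. Without any 1 library, 0 members were called in the fit without the block. Upper-quartile scaling moved the median of all genes from -0.04 to 0.12. The depth of the CD44- libraries puts the 3-transcript floor at 18.9 to 30.9 CPM, so genes counted a few times there cannot show small differences.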
